A study of Mus musculus with 12 samples.

Results

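Transcript levels of 37 genes for lysosomal enzymes and membrane proteins were followed in mouse hepatocytes that did or did not carry a P16 transgene, before and after partial hepatectomy. The genes were taken by symbol from the deposited count table, which holds 31053 genes. All 37 were found there, and all 37 passed the filter on low counts that left 12257 genes for testing. They comprised 10 proteases, 9 glycosidases, 6 sulfatases and lipid hydrolases, 3 activator or progranulin genes, 5 other membrane proteins, 3 subunits of the vacuolar proton pump (V-ATPase) and the transcription factor gene Tfeb.

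The libraries came from 12 C57BL/6J wild-type mice aged 3 months and kept on chow, 3 in each of 4 groups. P16 mice had received the vector AAV8-TBG-eGFP-P16 by tail vein, and GFP mice the vector AAV8-TBG-eGFP. Every mouse thus carried an AAV8 vector and eGFP under TBG, a promoter active in hepatocytes. The 4 groups were P16 mice at 48 h after removal of 70% of the liver, GFP mice at 48 h, P16 mice at 0 h and GFP mice at 0 h. Surgery followed 1 week after the vector, and the 0 h mice had no hepatectomy. Cells were isolated by collagenase perfusion, with at least 95% viability and purity by microscopy per the labels' protocols, and poly(A) RNA was sequenced. Their sex is not stated in the sources used here. Replicates were separate mice.

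Lysosomes are acidic organelles in which hydrolases break down proteins, glycans and lipids delivered by endocytosis, phagocytosis and autophagy. The V-ATPase acidifies the lumen, heavily glycosylated membrane proteins line it, and small activator proteins present lipids to the enzymes. TFEB and its relatives bind a palindromic element, CLEAR, near the start of many lysosomal genes and drive their transcription when nutrient signalling through mTORC1 is low. Glb1 encodes the lysosomal β-galactosidase whose residual activity at a raised pH is the widely used histochemical marker of senescent cells. In liver, resident macrophages (Kupffer cells) are rich in lysosomes, and several cathepsins and progranulin are well expressed in them.

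Libraries held 14617049 to 25409451 reads in genes, and the 37 genes together took 0.359 to 0.491% of them. Cdkn2a, which encodes P16, had 256, 425 and 402 reads in P16 mice at 48 h, against 0, 5 and 0 reads in GFP mice at 48 h. It had 620, 105 and 355 reads in P16 mice at 0 h and none in the 3 GFP mice at 0 h, so the libraries followed the labels of their arms. The reads of P16 mice overlapped between the times, so they do not check the labels of time. The summed level of 10 hepatocyte markers was 73094 to 109733 CPM (counts scaled by library size and composition), and all 10 were present in every library. Among 21 markers of macrophages the sum was 125 to 152 CPM in P16 mice at 48 h, 112 to 182 CPM in GFP mice at 48 h, 50.1 to 86.4 CPM in P16 mice at 0 h and 87.0 to 267 CPM in GFP mice at 0 h. Of these markers, 18 had reads in all 12 libraries, while Itgam had none in 7 libraries, Ccr2 none in 2 and Cd14 none in 1. GFP mouse 2 at 0 h held the 267 CPM and stood apart from the other GFP mice at 0 h. Several results that rest on it are given with and without it. In these bulk libraries, fewer cells of a type and less RNA per cell cannot be told apart.

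The 37 genes spanned a wide range of abundance. Per kilobase of exon, the mean over the 12 libraries was highest for the carboxypeptidase gene Ctsz at 179 CPM per kb. Psap, the precursor of the saposin activator proteins, followed with 135 CPM per kb, and Lamp1, a major glycoprotein of the lysosomal membrane, with 131 CPM per kb. The cysteine protease genes Ctsl and Ctsb had 84.7 and 70.1 CPM per kb. At the other end were the heparan sulfatase gene Sgsh at 0.745 CPM per kb and the membrane protein gene Cln3 at 1.42 CPM per kb, while Tfeb was at percentile 36.8 of all genes tested. Glb1 lay low among them at 3.13 CPM per kb, which put it at percentile 53.2. Within groups the spread between mice differed by gene and by group. The coefficient of variation within a group was summarised for each gene by its median over the 4 groups. This had a median of 9.07% over the 37 genes, and it was lowest for the acid α-glucosidase gene Gaa at 3.51% and highest for the cysteine protease gene Ctss at 29.3%. Single groups were wider for some genes. In GFP mice at 0 h it was 76.0% for Ctss, 39.9% for Tfeb, 33.0% for Ctsc and 23.4% for Grn. In P16 mice at 48 h it was 42.2% for Arsb and 33.4% for Ctsc.

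**Figure D1:**
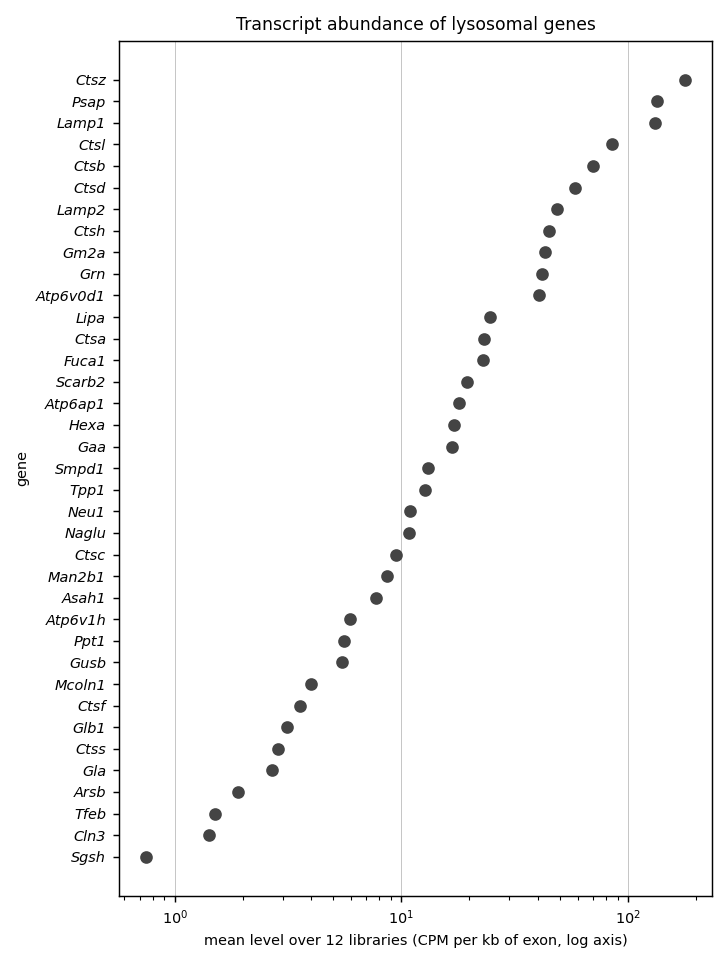
Mean level of each of the 37 lysosomal genes over the 12 libraries, in CPM per kilobase of exon on a log axis; each point is 1 gene. Ctsz at 179 CPM per kb is the highest and Sgsh at 0.745 CPM per kb the lowest.

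The element to which TFEB binds has the letters CACGTG at its core, so the RefSeq promoter windows of the genes (assembly GRCm38.p6, 250 bases before to 50 after a gene's start) were searched for it. Windows were held for 33 of the 37 genes, and Asah1, Atp6v1h, Ctsb and Ctsh had none. CACGTG was present in 13 of the 33 (39.4%), namely Atp6v0d1, Cln3, Ctsa, Ctsd, Ctsf, Ctsl, Gaa, Gla, Glb1, Lamp1, Mcoln1, Naglu and Sgsh. The share was 11.7% among genes tested that have a window and 8.09% over all 27025 genes with one. The longer TCACGTGA, which contains CACGTG, was present in 6 of the 33 (18.2%), namely Atp6v0d1, Cln3, Ctsa, Ctsd, Gla and Mcoln1, against 2.17% of genes tested and 1.12% of all genes. Both motifs read the same on either strand. A match describes letters in a window and not a bound site.

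The windows of 6 genes on which the comparisons turn or which hold several copies are shown here, as the 250 bases before the start, 5′ to 3′ on the gene's own strand, with CACGTG in capitals. The calcium channel gene Mcoln1 has 2 copies, 71 and 45 bases before the start, and Lamp1 has 4, at 61, 45, 28 and 15 bases. The aspartic protease gene Ctsd has 2 copies at 245 and 98 bases, the α-galactosidase gene Gla has 2 at 227 and 194 bases, and Glb1 has 1 at 48 bases. The progranulin gene Grn is shown beside them because it passed the test between the arms, and these letters are not in its window. The starts here are those of RefSeq, while gene positions given below are from GENCODE vM21. Except for Lamp1, the GENCODE start lies within the bases shown, and the nearer copies of Mcoln1 and Ctsd lie after it. For Grn it is at 102430315, so most of the bases shown lie after it, and bases before 102430257 were not searched.
Mcoln1, chr8:3500269-3500518, plus strand: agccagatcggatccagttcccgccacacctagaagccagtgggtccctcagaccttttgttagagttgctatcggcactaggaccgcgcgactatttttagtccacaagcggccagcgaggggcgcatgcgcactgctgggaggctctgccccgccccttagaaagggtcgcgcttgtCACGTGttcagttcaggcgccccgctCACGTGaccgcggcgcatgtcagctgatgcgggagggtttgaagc
Lamp1, chr8:13158911-13159160, plus strand: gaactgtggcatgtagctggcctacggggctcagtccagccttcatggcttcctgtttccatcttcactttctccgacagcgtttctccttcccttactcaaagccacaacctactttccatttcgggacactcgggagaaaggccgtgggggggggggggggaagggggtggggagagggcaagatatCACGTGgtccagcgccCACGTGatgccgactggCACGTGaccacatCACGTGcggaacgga
Ctsd, chr7:142387828-142388077, minus strand: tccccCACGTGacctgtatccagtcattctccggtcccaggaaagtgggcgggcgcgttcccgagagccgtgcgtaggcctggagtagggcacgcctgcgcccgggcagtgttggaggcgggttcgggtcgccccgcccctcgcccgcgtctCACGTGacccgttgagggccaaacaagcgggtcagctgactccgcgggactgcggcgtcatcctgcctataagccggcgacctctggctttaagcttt
Gla, chrX:134601006-134601255, minus strand: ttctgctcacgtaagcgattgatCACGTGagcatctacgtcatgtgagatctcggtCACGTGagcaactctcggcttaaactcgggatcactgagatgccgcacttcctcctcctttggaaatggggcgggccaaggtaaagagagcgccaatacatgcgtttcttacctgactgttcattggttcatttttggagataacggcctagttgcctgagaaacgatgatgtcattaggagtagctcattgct
Glb1, chr9:114400828-114401077, plus strand: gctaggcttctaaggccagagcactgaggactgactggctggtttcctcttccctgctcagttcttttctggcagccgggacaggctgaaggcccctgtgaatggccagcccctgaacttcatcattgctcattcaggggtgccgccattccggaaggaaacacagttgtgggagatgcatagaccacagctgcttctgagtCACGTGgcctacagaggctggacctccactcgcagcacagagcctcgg
Grn, chr11:102430257-102430506, plus strand: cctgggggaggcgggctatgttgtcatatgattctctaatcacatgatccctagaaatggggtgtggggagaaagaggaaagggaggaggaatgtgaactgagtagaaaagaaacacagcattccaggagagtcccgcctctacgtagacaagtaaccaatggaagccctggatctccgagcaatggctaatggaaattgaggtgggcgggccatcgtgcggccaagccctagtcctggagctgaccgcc

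Over the whole set, the summed level was 4060 ± 249 CPM in P16 mice at 48 h, 3968 ± 25.5 CPM in GFP mice at 48 h, 4380 ± 256 CPM in P16 mice at 0 h and 4921 ± 122 CPM in GFP mice at 0 h (SD, n = 3 each). Proteases carried the largest part, with 1776 ± 199 CPM in P16 mice at 48 h, 1555 ± 36.0 CPM in GFP mice at 48 h, 1863 ± 158 CPM in P16 mice at 0 h and 2102 ± 89.0 CPM in GFP mice at 0 h. All 3 GFP mice at 0 h exceeded the other 9 mice in the summed level of the set. The sums are weighted by a few abundant genes, and no test was made on them.

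**Figure D2:**
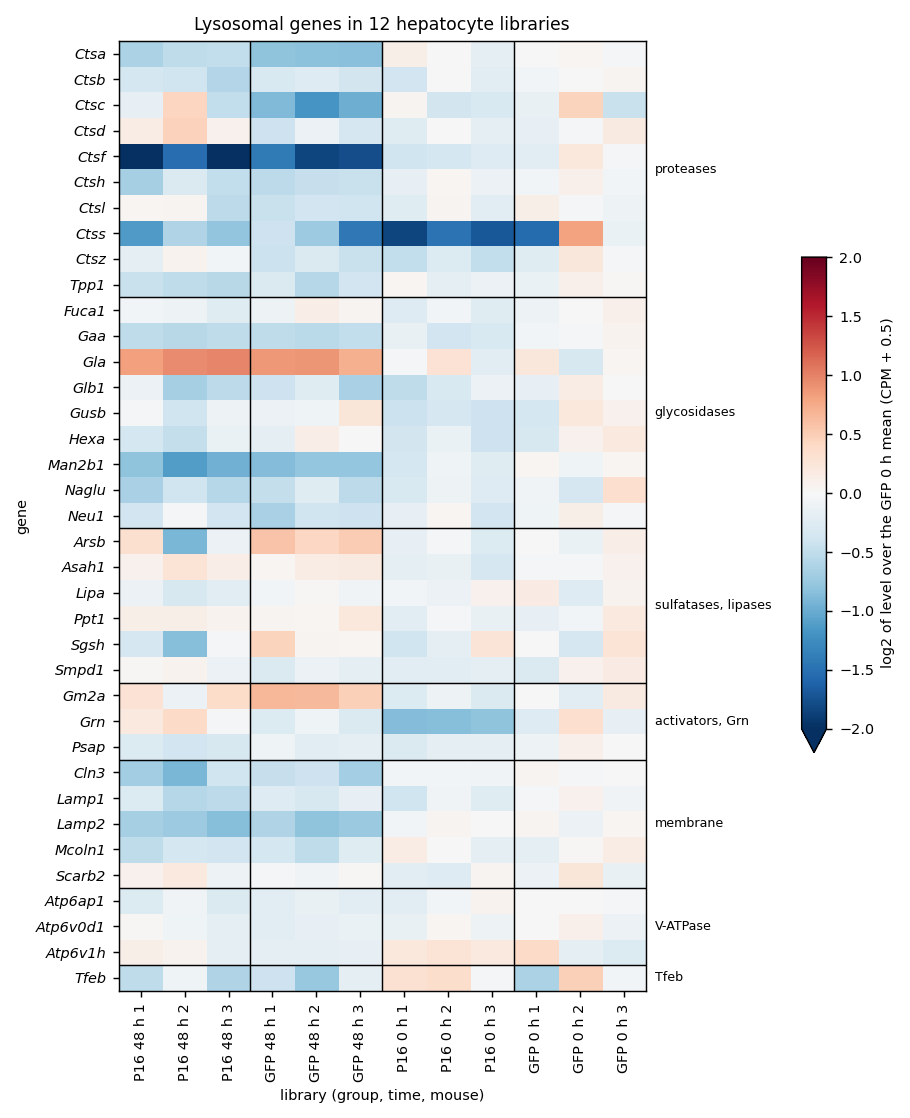
Level of each lysosomal gene in each of the 12 libraries, as log2 of (CPM + 0.5) over the GFP mean at 0 h; genes are ordered by role, and the colour scale ends at −2. Ctsf is low and Gla high in all 6 libraries at 48 h, while Grn is low in the 3 P16 libraries at 0 h.

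The first comparison asked whether P16 alone, in the resting liver, altered the lysosomal genes. Before hepatectomy 1 of the 37 genes passed the test in P16 against GFP mice (2.70%), the progranulin gene Grn, and it was lower. Over all genes tested, 0.0979% were called lower and 0.122% higher in this comparison. Because the members were chosen with earlier results of these data known, these shares are a description only. Apart from Grn, differences were mostly small and of 1 sign, with 34 of 37 log2 fold changes below 0 against 49.3% of all genes. Without GFP mouse 2 at 0 h, 31 of the 37 were below 0. The median log2 fold change was −0.16 over the 37 genes and 0.0037 over all genes. In this comparison 21 of 30 other lysosomal hydrolase genes were below 0 (median −0.15), and 17 of 28 other lysosomal membrane genes (−0.11). So were 7 of the 10 hepatocyte markers (−0.16). Of 16 other V-ATPase genes 5 were below 0 (median 0.036), and of 30 genes for sorting to lysosomes 14 (0.0054). Of 25 regulators of mTORC1 and of the TFEB family 11 were below 0 (0.048), and of 36 autophagy genes 20 (−0.038). For 8 of the 37 (21.6%), Gaa, Asah1, Ctsf, Ctsz, Psap, Grn, Lamp1 and Cln3, every P16 mouse lay below every GFP mouse, while 6.84% of all genes did so. None lay above in this way, against 7.6% of all genes. At an unadjusted p under 0.05 by edgeR there were 5 of 37 (13.5%), against 13.5% of all genes.

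Grn lies on chromosome 11 at 102430315 to 102437048, plus strand (GRCm38, the assembly of mm10). Progranulin is a secreted glycoprotein that is delivered to lysosomes and cleaved there into granulins. Grn ran at 89.6, 89.8 and 92.7 CPM in P16 mice at 0 h, against 136, 207 and 146 CPM in GFP mice at 0 h. The 3 P16 mice were close together and all below the lowest GFP mouse. The log2 fold change was −0.85 (SE 0.152, adjusted p = 0.0273 by the edgeR quasi-likelihood test with Benjamini-Hochberg adjustment over all genes). Without GFP mouse 2 it was −0.64 (adjusted p = 0.0385). The call was lost without P16 mouse 1 (adjusted p = 0.0733), 2 (0.0509) or 3 (0.0973) at 0 h, and in a fit of the 2 groups alone (0.159). DESeq2 called Grn with an adjusted p of 0.000118 and limma-voom with 0.0278. In all, DESeq2 called 2 of the 37, against 0.975% of the 18354 genes it tested without the low-count filter. By limma-voom 1 was called, against 0.114% of the 12257 genes.

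At 0 h the arms lay in the same order for the summed macrophage markers as for Grn. All 3 P16 mice, at 50.1 to 86.4 CPM, were below all 3 GFP mice, at 87.0 to 267 CPM. GFP mouse 2 was the highest of the 0 h mice in both. P16 mouse 2 and GFP mouse 1 had close sums of 86.4 and 87.0 CPM, with Grn at 89.8 and 136 CPM. Of the 19 macrophage markers tested, all 19 had a log2 fold change below 0, against 49.3% of all genes. An unadjusted p under 0.05 was found for 17 (89.5%, against 13.5% of all genes). By edgeR 1 passed, Cd74, an invariant chain of antigen presentation, and it was lower in P16 mice, while DESeq2 called 8 lower and limma-voom none. The median log2 fold change of the 19 was −1.68, or −0.74 with 18 below 0 without GFP mouse 2. Endothelial markers summed to 85.4 to 101 CPM in P16 mice and 114 to 212 CPM in GFP mice at 0 h. All 17 of these had a log2 fold change below 0, with a median of −0.65, or −0.34 with 15 below 0 without GFP mouse 2. Of the 17, 7 had an unadjusted p under 0.05 (41.2%, against 13.5% of all genes), while none passed by edgeR, DESeq2 or limma-voom. Of 10 stellate cell markers tested, 7 were below 0 (median −0.47) and 1 had an unadjusted p under 0.05 (10%). None of them passed by these tests. The part of these cells in the difference of Grn was not tested.

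Ctss, a cysteine protease of antigen-presenting cells, had the largest fold difference of the set at 0 h, with 1.51, 2.07 and 1.70 CPM in P16 mice, against 1.96, 12.0 and 5.99 CPM in GFP mice. It did not pass the test, at a log2 fold change of −1.92 (SE 0.506, adjusted p = 0.149), and the groups overlapped; it is named after its values were seen. DESeq2 called it (adjusted p = 0.0150), as did the main test without GFP mouse 1 at 0 h (0.00622). Without GFP mouse 2 at 0 h the log2 fold change was −1.16 (adjusted p = 0.375). Glb1 had 7.94, 9.24 and 10.6 CPM in P16 mice at 0 h, against 10.2, 12.8 and 11.4 CPM in GFP mice at 0 h. Its ranges overlapped, and the log2 fold change was −0.31 (SE 0.203, adjusted p = 0.528). Tfeb had 11.6, 12.04 and 9.13 CPM in P16 mice, against 5.80, 13.2 and 8.90 CPM in GFP mice, with a log2 fold change of 0.22 (SE 0.263, adjusted p = 0.755). Neither of these passed the test, and the sign for Tfeb turned without GFP mouse 1 at 0 h (−0.015).

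At 48 h after hepatectomy, where the comparison asked whether P16 altered the genes in the regenerating liver, none of the 37 passed the edgeR test in P16 against GFP mice. Over all genes 2.28% were called, 1.24% higher and 1.04% lower. At an unadjusted p under 0.05 there were 8 of 37 (21.6%), against 17.5% of all genes. DESeq2 called 2 of the 37, Ctsd and Ctsc, both higher in P16 mice (3.6% of its 18354 genes). By limma-voom Ctsd was called (2.93% of the 12257 genes). Of the 37 log2 fold changes 20 were below 0, against 50.3% of all genes. The median log2 fold change was −0.020 over the 37 genes and −0.0025 over all genes. Every P16 mouse lay above every GFP mouse for 6 genes (16.2%, against 14.8% of all genes), Neu1, Ctsa, Ctsc, Ctsd, Ctsz and Grn. The reverse held for 5 genes (13.5%, against 13.4% of all genes), Sgsh, Arsb, Lipa, Psap and Gm2a.

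The genes with the lowest p at 48 h were a pair of proteases, a sulfatase and an activator. Ctsd, the main aspartic protease of lysosomes, had 155, 193 and 148 CPM in P16 mice at 48 h, against 104, 129 and 111 CPM in GFP mice at 48 h. Its log2 fold change was 0.53 (SE 0.139, adjusted p = 0.0505), just outside the threshold. It passed without GFP mouse 1 or 2 at 0 h, without the filter on low counts and in a fit of the 2 groups alone (lowest adjusted p 0.0108, by DESeq2). Ctsc, the dipeptidyl peptidase that activates serine proteases of immune granules, had 58.5, 88.6 and 46.8 CPM in P16 mice, against 35.4, 28.7 and 33.2 CPM in GFP mice. The P16 mice were spread widely and all above the GFP mice, with a log2 fold change of 0.99 (SE 0.256, adjusted p = 0.0677). Ctsc passed without GFP mouse 2 or 3 at 0 h, without P16 mouse 3 at 48 h and in the fit of the 2 groups. Arsb, which removes sulfate from dermatan and chondroitin chains, had 13.8, 5.55 and 10.1 CPM in P16 mice, against 16.5, 14.8 and 15.8 CPM in GFP mice. Here P16 mouse 2 was lowest, and the log2 fold change was −0.67 (SE 0.229, adjusted p = 0.126). It passed without P16 mouse 1 at 48 h or without the filter, and without P16 mouse 2 at 48 h it was −0.40 (adjusted p = 0.5). Gm2a, the activator that lifts the ganglioside GM2 to hexosaminidase, had 194, 145 and 204 CPM in P16 mice, against 251, 246 and 219 CPM in GFP mice, with a log2 fold change of −0.40 (SE 0.143, adjusted p = 0.143).

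Grn at 48 h had 186, 212 and 159 CPM in P16 mice, against 135, 154 and 133 CPM in GFP mice. All 3 P16 mice were above the GFP mice, and the log2 fold change of 0.40 (SE 0.150, adjusted p = 0.167) did not pass the test except without GFP mouse 2 at 0 h (adjusted p = 0.0481). The macrophage sums overlapped at this time, at 125 to 152 CPM in P16 mice and 112 to 182 CPM in GFP mice. Glb1 had 10.6, 7.03 and 7.79 CPM in P16 mice, against 8.49, 9.64 and 7.18 CPM in GFP mice. The groups overlapped and the log2 fold change was 0.0071 (SE 0.201, adjusted p = 0.992), with a sign that turned when single libraries were left out. Tfeb had 6.41, 8.75 and 5.97 CPM in P16 mice, against 6.82, 5.27 and 8.15 CPM in GFP mice, and a log2 fold change of 0.055 (SE 0.263, adjusted p = 0.948).

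Hepatectomy itself, the comparison of 48 h with 0 h in each arm, moved more of the genes. In P16 mice 6 of 37 rose (16.2%) and 8 fell (21.6%), while 19.6% of all genes were called higher and 19% lower. In GFP mice 2 rose (5.41%) and 14 fell (37.8%), while 17.2% of all genes were called higher and 16.4% lower. Without GFP mouse 1 at 48 h, 10 of the 37 passed in GFP mice, and without GFP mouse 2 at 0 h 2 rose and 11 fell. The median log2 fold change of the set was −0.10 in P16 mice and −0.29 in GFP mice, and that of all genes was 0.0047 in P16 mice and −0.011 in GFP mice. At an unadjusted p under 0.05 there were 16 genes in P16 mice (43.2%, against 46.9% of all genes) and 19 in GFP mice (51.4%, against 42.7%). Log2 fold changes were below 0 for 22 of 37 in P16 mice, against 49.7% of all genes, and for 29 of 37 in GFP mice, against 50.7%. DESeq2 called 14 members in P16 mice and 15 in GFP mice, against 26.8% and 23.4% of its 18354 genes. That base includes genes with few reads, while all 37 members passed the filter, so the counts and shares are not like for like. By limma-voom 15 were called in P16 mice (38.2% of the 12257 genes) and 15 in GFP mice (34.1%). In all, 8 genes fell in both arms by the main test, which is 100% of those that fell in P16 mice and 57.1% of those that fell in GFP mice. Both genes that rose in GFP mice, Gla and Gm2a, rose in P16 mice too (33.3% of the 6). Over all 12257 genes tested, 1540 (12.6%) were called higher in both arms, of 2398 called higher in P16 mice and 2111 in GFP mice. Called lower in both arms were 1443 (11.8%), of 2333 called lower in P16 mice and 2006 in GFP mice. The arms share no mice, and a call in 1 arm only is no test of a difference between them.

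Markers of cell types moved with time as well. Beside their counts, 19.6% of all genes were called higher and 19% lower in P16 mice, and 17.2% higher and 16.4% lower in GFP mice. Of the 10 hepatocyte markers, 3 fell in P16 mice (median log2 fold change −0.41, and 7 fell without GFP mouse 2 at 0 h) and 6 fell in GFP mice (−0.60), and none rose. Of the 17 endothelial markers, none passed in P16 mice by edgeR, DESeq2 or limma-voom (median 0.21, 1 at an unadjusted p under 0.05), and 4 fell in GFP mice (median −0.58), or none with a median of −0.23 without GFP mouse 2 at 0 h. Of the 19 macrophage markers, 4 rose and 1 fell in P16 mice (median 1.09, and 8 rose without GFP mouse 2 at 0 h), and 2 rose and 3 fell in GFP mice (median −0.61, or 0.22 without GFP mouse 2 at 0 h). Of the 10 stellate cell markers tested, 4 rose in P16 mice (median 1.18) and 3 rose in GFP mice (median 0.53), and none fell. The part of these cell types in the responses of the lysosomal genes was not tested.

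**Figure D3:**
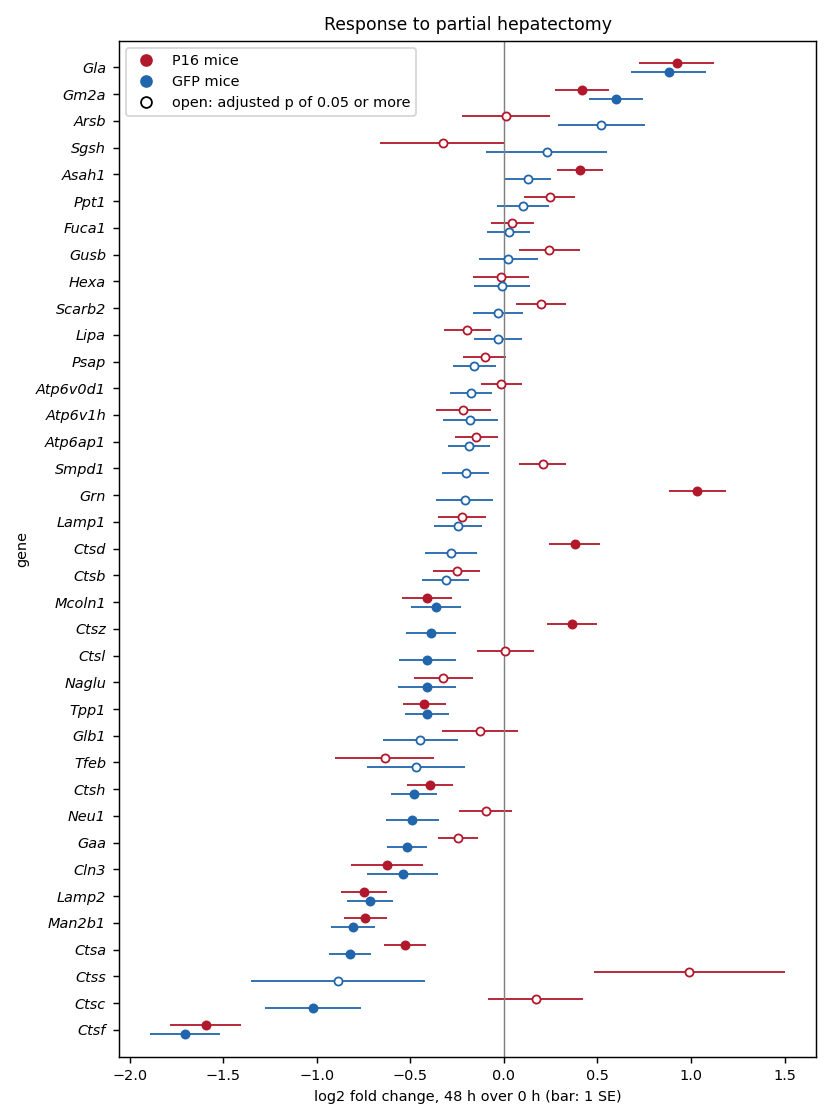
Log2 fold change of each lysosomal gene at 48 h over 0 h in P16 mice (red) and GFP mice (blue), with bars of 1 SE; filled points passed the test at an adjusted p under 0.05. Ctsf lies at −1.59 in P16 mice and −1.71 in GFP mice, and Ctsz has filled points on both sides of 0.

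Among the 10 proteases, 2 rose and 4 fell in P16 mice, and 7 fell and none rose in GFP mice. Over all genes 19.6% were called higher and 19% lower in P16 mice, and 17.2% higher and 16.4% lower in GFP mice, which also holds beside the counts of the other roles. Ctsf, a cysteine cathepsin on chromosome 19 at 4855130 to 4860918, fell most of the 37 genes in both arms. In P16 mice it had 6.41, 10.3 and 7.28 CPM at 48 h, against 23.1, 23.8 and 25.4 CPM at 0 h. GFP mice had 11.2, 8.23 and 8.62 CPM at 48 h, against 26.3, 35.5 and 29.9 CPM at 0 h. All 6 libraries at 48 h lay well below all 6 at 0 h, with log2 fold changes of −1.59 (SE 0.189, adjusted p = 2.53e-06) in P16 mice and −1.71 (SE 0.185, adjusted p = 1.11e-06) in GFP mice. Ctsa, the carboxypeptidase that also shields Neu1 and Glb1 from degradation, fell too. Its P16 mice had 87.7, 94.9 and 95.8 CPM at 48 h, against 147, 135 and 119.7 CPM at 0 h. Its GFP mice had 77.4, 76.5 and 75.8 CPM at 48 h, against 135, 139.8 and 132 CPM at 0 h. No 48 h library reached a 0 h library, and the log2 fold changes were −0.53 (SE 0.112, adjusted p = 0.00105) in P16 mice and −0.82 (SE 0.112, adjusted p = 1.58e-05) in GFP mice.

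Tpp1, which trims tripeptides from the ends of proteins, had 56.8, 54.4 and 52.7 CPM at 48 h, against 79.9, 68.9 and 71.4 CPM at 0 h, in P16 mice. In GFP mice Tpp1 had 63.7, 52.05 and 59.4 CPM at 48 h, against 71.01, 82.9 and 79.1 CPM at 0 h. The times did not overlap in either arm, and it fell by 0.42 on the log2 scale in P16 mice (adjusted p = 0.00745) and by 0.41 in GFP mice (adjusted p = 0.0105), a call lost in GFP mice without mouse 2 at 48 h (adjusted p = 0.0748). Ctsh, an aminopeptidase, had 151, 195 and 171 CPM at 48 h, against 212, 246 and 221 CPM at 0 h, in P16 mice. Its levels in GFP mice were 166, 173 and 175 CPM at 48 h, against 229, 257 and 232 CPM at 0 h. It fell by 0.39 in P16 mice (adjusted p = 0.0166) and by 0.48 in GFP mice (adjusted p = 0.00548). The call in P16 mice was lost without mouse 2 at 0 h or without mouse 1 or 3 at 48 h (adjusted p up to 0.0883).

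Ctsc and Ctsl fell in GFP mice and did not pass in P16 mice. Ctsc had 35.4, 28.7 and 33.2 CPM at 48 h, against 59.04, 89.98 and 48.2 CPM at 0 h, in GFP mice, and the log2 fold change was −1.02 (SE 0.256, adjusted p = 0.00916). Without GFP mouse 2 at 0 h Ctsc was at −0.72 in GFP mice (adjusted p = 0.026). In P16 mice it had 58.5, 88.6 and 46.8 CPM at 48 h, against 68.3, 50.8 and 53.3 CPM at 0 h, and the times overlapped. Ctsl, an endopeptidase and among the most abundant members, had 449, 469 and 466 CPM at 48 h, against 664, 603 and 571 CPM at 0 h, in GFP mice. Its log2 fold change there was −0.41 (SE 0.152, adjusted p = 0.0452). The call was lost without GFP mouse 1 or 3 or P16 mouse 1 or 3 at 0 h, P16 mouse 1 at 48 h or any GFP mouse at 48 h. It was also lost with the replicate number as a block (adjusted p up to 0.141 over these fits). In P16 mice Ctsl had 628, 636 and 426 CPM at 48 h, against 516, 639 and 528 CPM at 0 h, with mouse 3 at 48 h lowest. Ctsb, another endopeptidase, did not pass by edgeR in either arm and ranged from 332 to 513 CPM. In GFP mice its log2 fold change was −0.31 (SE 0.127, adjusted p = 0.066), and DESeq2 (adjusted p = 0.0311), upper quartile scaling and the fit of the 2 groups alone called it lower. Ctss had 2.75, 4.19 and 3.64 CPM at 48 h, against 1.51, 2.07 and 1.70 CPM at 0 h in P16 mice, without overlap, and did not pass at a log2 fold change of 0.99 (SE 0.510, adjusted p = 0.141). Its GFP values of 4.87, 3.81 and 2.14 CPM at 48 h, against 1.96, 12.0 and 5.99 CPM at 0 h overlapped, with a log2 fold change of −0.89 (SE 0.465, adjusted p = 0.162), or −0.13 (adjusted p = 0.85) without GFP mouse 2 at 0 h. Without GFP mouse 1 at 0 h Ctss passed in both arms, with opposite signs (lowest adjusted p 0.0362 in P16 mice and 0.00975 in GFP mice), and in P16 mice it also passed in the fit of the 2 groups alone.

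Ctsz (chromosome 2, 174427493 to 174439039, minus strand) and Ctsd (chromosome 7, 142375911 to 142388038, minus strand) rose in P16 mice. Ctsz, a carboxypeptidase, had 260.4, 313 and 286 CPM at 48 h, against 211, 246 and 212 CPM at 0 h, in P16 mice, without overlap. In the GFP arm it had 219.7, 242 and 219 CPM at 48 h, against 251, 348 and 294 CPM at 0 h, again without overlap but in the other direction. The log2 fold changes were 0.36 (SE 0.135, adjusted p = 0.0406) in P16 mice and −0.39 (SE 0.135, adjusted p = 0.0327) in GFP mice, and Ctsz was the 1 member called in both arms with opposite signs. The rise was lost without P16 mouse 1 or 3 at 0 h, P16 mouse 2 or 3 at 48 h, GFP mouse 3 at 0 h or any GFP mouse at 48 h (adjusted p up to 0.127). The fall was lost without GFP mouse 2 or 3 at 0 h or any GFP mouse at 48 h (adjusted p up to 0.128). Ctsd had 155, 193 and 148 CPM at 48 h, against 118, 141 and 124 CPM at 0 h, in P16 mice, and the log2 fold change was 0.38 (SE 0.139, adjusted p = 0.0383). Leaving out P16 mouse 1 or 3 at 0 h, P16 mouse 2 at 48 h or GFP mouse 3 at 48 h ended the call (adjusted p up to 0.179). In GFP mice Ctsd had 104, 129 and 111 CPM at 48 h, against 124, 136 and 159 CPM at 0 h, and it did not pass the test.

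Of the 9 glycosidases, 1 rose and 1 fell in P16 mice, and 1 rose and 4 fell in GFP mice. Gla, on the X chromosome at 134588149 to 134601125, which takes terminal galactose from globotriaosylceramide, rose in both arms. In P16 mice it had 11.01, 12.1 and 12.3 CPM at 48 h, against 5.96, 7.48 and 5.17 CPM at 0 h. In GFP mice it had 11.4, 11.6 and 10.2 CPM at 48 h, against 7.15, 4.74 and 6.21 CPM at 0 h. Every library at 48 h was above every library at 0 h, with log2 fold changes of 0.92 (SE 0.202, adjusted p = 0.00138) in P16 mice and 0.88 (SE 0.201, adjusted p = 0.00232) in GFP mice. Man2b1, which removes mannose from glycoprotein glycans, fell in both. It had 53.5, 42.9 and 48.1 CPM at 48 h, against 73.3, 88.96 and 79.2 CPM at 0 h, in P16 mice. GFP mice had 51.6, 54.9 and 54.7 CPM at 48 h, against 96.7, 88.8 and 96.7 CPM at 0 h. The log2 fold changes were −0.74 (SE 0.117, adjusted p = 6.96e-05) in P16 mice and −0.81 (SE 0.117, adjusted p = 3.11e-05) in GFP mice.

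Gaa, Neu1 and Naglu fell in GFP mice and did not pass in P16 mice. Gaa, which digests glycogen in lysosomes, had 69.9, 68.01 and 70.2 CPM at 48 h, against 95.6, 97.6 and 105 CPM at 0 h, in GFP mice, and fell by 0.52 on the log2 scale (adjusted p = 0.00105). In P16 mice it had 69.96, 67.2 and 69.7 CPM at 48 h, against 89.6, 75.8 and 79.9 CPM at 0 h, also without overlap, with a log2 fold change of −0.24 (adjusted p = 0.0801). Neu1, the sialidase, had 30.1, 35.9 and 35.3 CPM at 48 h, against 44.4, 51.5 and 46.01 CPM at 0 h, in GFP mice and fell by 0.49 (adjusted p = 0.0114), a call lost without GFP mouse 1 at 48 h (adjusted p = 0.0677). P16 mice had 35.98, 46.6 and 35.98 CPM at 48 h, against 42.01, 48.5 and 36.2 CPM at 0 h, for Neu1, with overlap. Naglu, an enzyme of heparan sulfate breakdown, had 25.1, 29.6 and 24.2 CPM at 48 h, against 33.2, 27.7 and 44.1 CPM at 0 h, in GFP mice. Those times overlapped, its adjusted p of 0.0497 was the closest to the threshold, and 4 of 20 alternative fits kept the call (adjusted p up to 0.335). It was lost when any 1 library was left out except GFP mouse 2 at 0 h or at 48 h. In P16 mice Naglu had 22.2, 26.3 and 23.5 CPM at 48 h, against 28.1, 32.7 and 29.3 CPM at 0 h.

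Glb1 (chromosome 9, 114401076 to 114474898, plus strand) did not pass in either arm. From the levels above, its ranges at 48 h and 0 h overlapped in P16 mice and did not in GFP mice, where all 3 mice at 48 h were lower. The log2 fold change was −0.13 (SE 0.204, adjusted p = 0.653) in P16 mice and −0.45 (SE 0.201, adjusted p = 0.0953) in GFP mice. The other glycosidase genes, which did not pass in either arm, were the fucosidase gene Fuca1 at 66.3 to 86.4 CPM, the β-glucuronidase gene Gusb at 20.01 to 32.4 CPM and the hexosaminidase subunit gene Hexa at 26.9 to 43.1 CPM over the 12 libraries.

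The 6 sulfatases and lipid hydrolases had 1 call over both arms. Asah1, the acid ceramidase, had 27.4, 31.4 and 28.5 CPM at 48 h, against 22.4, 23.2 and 20.3 CPM at 0 h, in P16 mice, without overlap. Its log2 fold change was 0.41 (SE 0.124, adjusted p = 0.0148), and the call was lost without P16 mouse 3 at 0 h or P16 mouse 2 at 48 h (adjusted p up to 0.0671). GFP mice had 26.5, 28.8 and 29.4 CPM at 48 h, against 25.1, 25.01 and 27.4 CPM at 0 h, with overlap. Sgsh ranged from 1.66 to 4.84 CPM, Arsb from 5.55 to 16.5 CPM and the acid lipase gene Lipa from 139 to 194 CPM. The acid sphingomyelinase gene Smpd1 ranged from 38.5 to 52.97 CPM, and Ppt1, which strips palmitate from proteins, from 17.2 to 23.5 CPM. None of these 5 passed in either arm by edgeR, DESeq2 or limma-voom, and Arsb passed in GFP mice without the filter, in the fit of the 2 groups alone and without P16 mouse 2 at 48 h.

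The activator Gm2a rose in both arms. In P16 mice it had 194, 145 and 204 CPM at 48 h, against 131, 146 and 129 CPM at 0 h. P16 mouse 2 at 48 h lay within the 0 h range. In the GFP arm it had 251, 246 and 219 CPM at 48 h, against 159, 135 and 179 CPM at 0 h, without overlap. The log2 fold changes were 0.42 (SE 0.144, adjusted p = 0.0283) in P16 mice and 0.60 (SE 0.144, adjusted p = 0.00343) in GFP mice, and the call in P16 mice was lost without mouse 1 or 3 at either time (adjusted p up to 0.136). Psap ranged from 319 to 448 CPM and passed in neither arm.

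Grn rose in P16 mice, with 186, 212 and 159 CPM at 48 h, against 89.6, 89.8 and 92.7 CPM at 0 h. Each P16 mouse at 48 h had well above the level of any P16 mouse at 0 h, a 2.05-fold rise with a log2 fold change of 1.03 (SE 0.152, adjusted p = 3.18e-05). It passed in P16 mice under all 20 alternative fits. In GFP mice Grn had 135, 154 and 133 CPM at 48 h, against 136, 207 and 146 CPM at 0 h, the times overlapped and the log2 fold change was −0.21 (SE 0.150, adjusted p = 0.303). Without GFP mouse 2 at 0 h that value was 0.00060. In P16 mice the macrophage sum was 125 to 152 CPM at 48 h and 50.1 to 86.4 CPM at 0 h, without overlap, and in GFP mice it was 112 to 182 CPM at 48 h and 87.0 to 267 CPM at 0 h. Their part in the rise of Grn was not tested.

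Of the 5 membrane proteins, 3 fell in each arm, and they were the same 3 genes, Lamp2, Cln3 and Mcoln1. Lamp2, a membrane glycoprotein that also serves chaperone-mediated autophagy, had 365, 353 and 322 CPM at 48 h, against 559, 608 and 579 CPM at 0 h, in P16 mice. In GFP mice it had 385, 332 and 347 CPM at 48 h, against 606, 539 and 601 CPM at 0 h. The gap between times exceeded the spread within them, with log2 fold changes of −0.75 (SE 0.122, adjusted p = 9.58e-05) in P16 mice and −0.72 (SE 0.122, adjusted p = 0.000172) in GFP mice. Cln3, the protein altered in juvenile Batten disease, had 6.00, 5.12 and 7.51 CPM at 48 h, against 9.69, 9.67 and 9.49 CPM at 0 h, in P16 mice. GFP mice had 7.14, 7.43 and 6.11 CPM at 48 h, against 10.4, 9.77 and 9.95 CPM at 0 h. Its log2 fold changes were −0.63 (SE 0.193, adjusted p = 0.0152) in P16 mice and −0.54 (SE 0.190, adjusted p = 0.0348) in GFP mice. The call was lost without P16 mouse 2 at 48 h in P16 mice (adjusted p up to 0.0723). In GFP mice it was lost without any 1 of the 6 GFP libraries, without the low-count filter and with the replicate number as a block (adjusted p up to 0.138).

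Mcoln1, the channel that releases lysosomal calcium, had 23.9, 26.6 and 26.1 CPM at 48 h, against 37.8, 34.2 and 30.02 CPM at 0 h, in P16 mice. GFP mice had 26.8, 23.99 and 28.9 CPM at 48 h, against 29.7, 34.7 and 38.1 CPM at 0 h. It fell by 0.41 on the log2 scale in P16 mice (adjusted p = 0.0215) and by 0.36 in GFP mice (adjusted p = 0.0444). The call was lost without P16 mouse 1 at 0 h or at 48 h in P16 mice (adjusted p up to 0.0913), and in GFP mice 7 of 20 alternative fits kept it (adjusted p up to 0.18). There it was lost without GFP mouse 2 or 3 at 0 h, P16 mouse 2 at 0 h, P16 mouse 1 or 3 at 48 h or any GFP mouse at 48 h, and by DESeq2. Lamp1 ranged from 276 to 433 CPM and passed in neither arm, nor did Scarb2, the carrier of glucocerebrosidase to lysosomes, at 104 to 147 CPM.

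No V-ATPase member passed in either arm. The accessory subunit gene Atp6ap1 ranged from 48.2 to 62.1 CPM, the membrane-sector gene Atp6v0d1 from 65.4 to 82.1 CPM and the peripheral-sector gene Atp6v1h from 47.1 to 74.5 CPM. Tfeb did not pass either. At 48 h it was lower than at 0 h in every P16 mouse, with a log2 fold change of −0.64 (SE 0.264, adjusted p = 0.0639), and the times overlapped in GFP mice at −0.47 (SE 0.263, adjusted p = 0.185). The call on Tfeb in P16 mice was made by limma-voom (adjusted p = 0.0467) and not by DESeq2 (adjusted p = 0.0788). GFP mouse 1 at 0 h was the lowest of the 0 h mice, and without it the value in GFP mice passed (adjusted p = 0.0423). Without GFP mouse 2 at 0 h the value in GFP mice was −0.12 (adjusted p = 0.769), and that in P16 mice passed at −0.64 (adjusted p = 0.0293).

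The 13 genes with CACGTG in a window had a median log2 fold change at 48 h over 0 h of −0.24 in P16 mice and −0.41 in GFP mice. Of these, 2 rose and 4 fell in P16 mice, and 1 rose and 7 fell in GFP mice. For the 20 genes whose windows lack it the medians were 0.028 in P16 mice and −0.20 in GFP mice. Here 3 rose and 3 fell in P16 mice, and 1 rose and 6 fell in GFP mice. Gla, which holds the longer motif in both of its copies shown above, rose in both arms, while Cln3, Ctsa and Mcoln1, which hold it too, fell in both. Of the other 2 with the longer motif, Ctsd rose in P16 mice and did not pass in GFP mice, and Atp6v0d1 passed in neither. These counts are a description.

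Finally, the design allows a test of whether P16 changed the response to hepatectomy, as the response in P16 mice less that in GFP mice. Grn was the 1 gene of 37 (2.70%) that passed, and its response was higher in P16 mice. Over all genes tested 0.0326% were called higher and 0.0653% lower. The members were chosen with earlier results of these data known, so these shares are a description only. Of the 37 genes 26 had a positive difference and 11 a negative one, against 49.8% of all genes with a negative one, the median being 0.086 over the 37 and 0.0015 over all genes. At an unadjusted p under 0.05 there were 6 (16.2%, against 11.8% of all genes), all positive: Grn, Ctsz, Ctsd, Ctsc, Ctss and Smpd1. These comparisons share libraries with those above, so the signs are not separate evidence.

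For Grn the difference of the log2 responses was 1.24 (SE 0.214, adjusted p = 0.0351). Without GFP mouse 2 at 0 h it was 1.03 (adjusted p = 0.0195), and without that mouse and P16 mouse 2 at 48 h it was 0.94 (adjusted p = 0.0158). The call was lost without P16 mouse 1 (adjusted p = 0.0550) or 3 (0.0544) at 0 h, P16 mouse 2 at 48 h (0.0677), or GFP mouse 1 (0.113) or 3 (0.0763) at 48 h, with values of 1.14 to 1.25 on the log2 scale. DESeq2 called it at an adjusted p of 0.000102 and limma-voom at 0.0397. In all, DESeq2 called 3 of the 37, against 1.09% of its 18354 genes, and limma-voom 1, against 0.0734% of the 12257 genes. The 19 macrophage markers tested all had a positive difference as well, with a median of 1.57, or 0.85 without GFP mouse 2 at 0 h, and none of them passed by edgeR or limma-voom, while DESeq2 called 1 and 7 had an unadjusted p under 0.05. The 17 endothelial markers all had a positive difference too, with a median of 0.77, or 0.30 with 14 positive without GFP mouse 2 at 0 h, and none passed by edgeR, DESeq2 or limma-voom. The part of these cells in the difference of Grn was not tested.

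**Figure D4:**
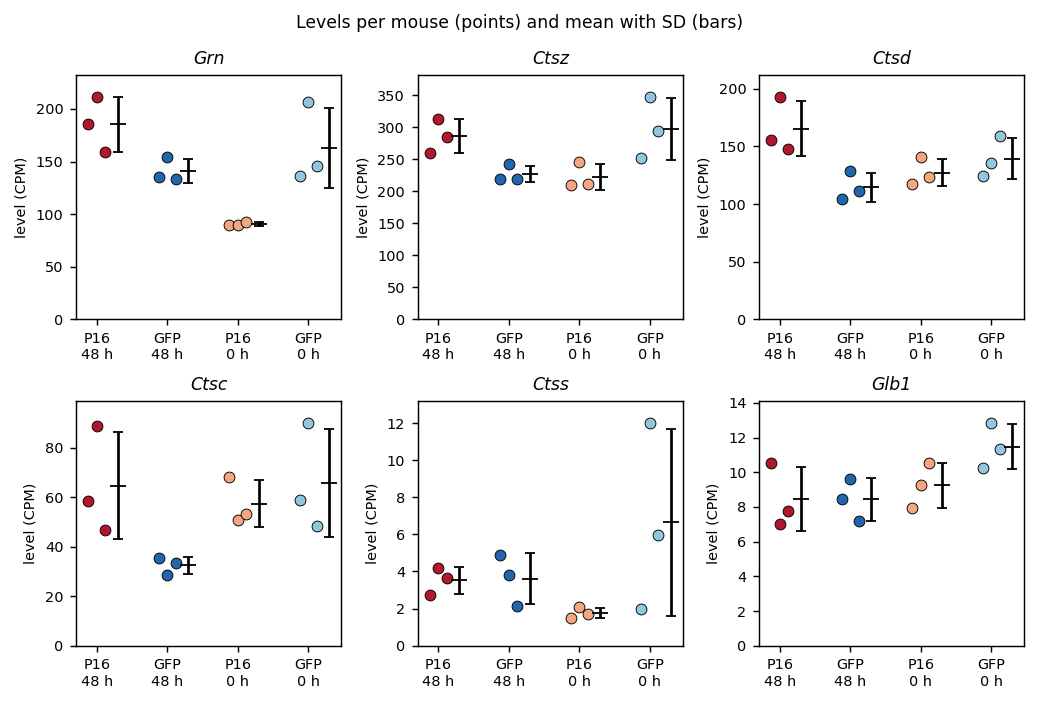
Levels of 6 lysosomal genes in each mouse (points, CPM) with the mean and SD of each group (n = 3). Grn is at 89.6 to 92.7 CPM in P16 mice at 0 h and at 133 CPM or more in every other mouse, while Glb1 overlaps between the arms at each time.

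Ctsz came next by p, at a difference of 0.75 (SE 0.191, adjusted p = 0.119), followed by Ctsd at 0.66 (SE 0.196, adjusted p = 0.166) and Ctsc at 1.19 (SE 0.360, adjusted p = 0.207). None passed in the main edgeR fit, while DESeq2 called Ctsz (adjusted p = 0.0139) and Ctsc (adjusted p = 0.0388). By edgeR Ctsz also passed without the low-count filter and without GFP mouse 1 at 0 h. Ctss, at 1.88 (SE 0.690, adjusted p = 0.294) in the main fit, passed without that mouse (adjusted p = 0.0471). Without GFP mouse 2 at 0 h the difference of Ctss was 1.12 (adjusted p = 0.459). Glb1 differed by 0.32 (SE 0.286, adjusted p = 0.723) and Tfeb by −0.17 (SE 0.372, adjusted p = 0.905), and neither passed.

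Grn, Ctss and Ctsz were then set beside the macrophage markers library by library. In GFP mouse 2 at 0 h, with a macrophage sum of 267 CPM, Ctss had 12.0 CPM and Ctsz 348 CPM, and both were the highest of the 12 libraries. Grn had 207 CPM there, below the 212 CPM of P16 mouse 2 at 48 h, whose macrophage sum was 152 CPM. The lowest Ctss, 1.51 CPM, was in P16 mouse 1 at 0 h, whose sum of 50.1 CPM was also the lowest. One macrophage marker, Mpeg1, made up 45.2 to 79.6 CPM of the sum at 48 h. Without it, a step chosen after the values were seen, the sums were 75.3 to 98.3 CPM in P16 mice at 48 h, 48.0 to 111 CPM in GFP mice at 48 h, 35.3 to 53.7 CPM in P16 mice at 0 h and 54.5 to 232 CPM in GFP mice at 0 h. Clec4f, which marks Kupffer cells, had 10.5, 9.86 and 12.6 CPM in P16 mice at 48 h, 16.9, 20.3 and 7.69 CPM in GFP mice at 48 h, 8.74, 10.4 and 7.58 CPM in P16 mice at 0 h and 7.61, 48.3 and 18.1 CPM in GFP mice at 0 h. For Clec4f P16 mice at 0 h overlapped GFP mice at 0 h, as for 13 of the 21 markers. For the other 8, Adgre1, C1qa, Cd74, Fcer1g, H2-Aa, H2-Ab1, Timd4 and Tyrobp, every P16 mouse lay below every GFP mouse at 0 h. Of all genes tested 6.84% did so.

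**Figure D5:**
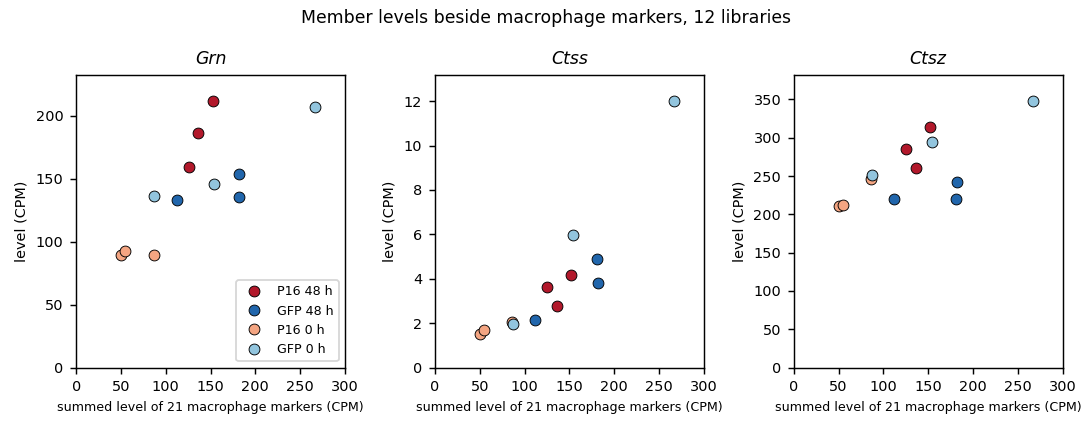
Levels of Grn, Ctss and Ctsz (CPM) in each of the 12 libraries against the summed level of 21 macrophage markers (CPM); each point is 1 mouse, coloured by group. GFP mouse 2 at 0 h lies farthest right at 267 CPM, and the 3 P16 mice at 0 h lie at 50.1 to 86.4 CPM.

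Genes around the set were read from fixed lists of the same pathway. None passed by edgeR in the test of the difference of responses, in any of the 6 lists. Each list had 2 to 6 genes at an unadjusted p under 0.05 (6.67 to 24% of a list, against 11.8% of all genes). In that test DESeq2 called 1 membrane gene and 1 regulator gene lower, and limma-voom none. Among 30 other lysosomal hydrolase genes tested, none passed by edgeR, DESeq2 or limma-voom between the arms at 0 h. There 5 had an unadjusted p under 0.05 (16.7%, against 13.5% of all genes). At 48 h 1 passed by edgeR between the arms (3.33%, against 2.28% of all genes), and DESeq2 called 2. The gene called by edgeR was Npc2, the soluble carrier of cholesterol out of lysosomes, with 77.1, 84.6 and 73.9 CPM in P16 mice at 48 h, against 53.05, 61.2 and 60.5 CPM in GFP mice at 48 h (log2 fold change 0.43, adjusted p = 0.0489). Its membrane partner Npc1 moved the other way among 28 other lysosomal membrane genes tested, with 44.7, 38.8 and 45.6 CPM in P16 mice, against 67.4, 54.8 and 67.3 CPM in GFP mice (log2 fold change −0.55, adjusted p = 0.0401). The groups did not overlap for either gene. Both calls were lost without any 1 of the 6 libraries at 48 h, without GFP mouse 3 at 0 h and with the replicate number as a block. The call held in 7 of 20 alternative fits for Npc2 (adjusted p up to 0.254) and in 11 of 20 for Npc1 (up to 0.218). Npc1 was the 1 membrane gene of that list to pass at 48 h by edgeR (3.57%, against 2.28% of all genes).

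After hepatectomy the other hydrolase genes showed 5 rises and 10 falls in P16 mice, and 3 rises and 9 falls in GFP mice, of 30 tested. Over all genes 19.6% were called higher and 19% lower in P16 mice, and 17.2% higher and 16.4% lower in GFP mice. Galns, a sulfatase of keratan sulfate, rose by 1.71 on the log2 scale in P16 mice and by 1.09 in GFP mice, and the hyaluronidase gene Hyal1 had log2 fold changes of −1.13 in P16 mice and −1.45 in GFP mice. Epdr1 had 21, 20 and 12 reads in P16 mice and 26, 22 and 19 reads in GFP mice at 48 h, against 1 read in all over the 6 mice at 0 h. Of the 28 other membrane genes, 3 rose (10.7%) and 7 fell in P16 mice, and 1 rose (3.57%) and 5 fell (17.9%) in GFP mice. Tmem106b had log2 fold changes of −1.15 in P16 mice and −0.99 in GFP mice, and the sialic acid exporter gene Slc17a5 had −1.06 in P16 mice and −0.95 in GFP mice. The tetraspanin gene Cd63 rose by 2.78 in P16 mice and by 1.15 in GFP mice, with no more than 39 reads in any library at 0 h. The rise of Cd63 in GFP mice was lost without GFP mouse 1 or 2 at 0 h or any GFP mouse at 48 h. It was also lost in a fit of the 2 groups alone (adjusted p up to 0.133 over these fits). The fall of Hyal1 in P16 mice was lost without P16 mouse 1 at 0 h (adjusted p = 0.0547).

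The 16 other V-ATPase genes tested showed 7 rises (43.8%, against 19.6% of all genes) and 2 falls (12.5%, against 19%) in P16 mice and 2 rises (12.5%, against 17.2%) and 1 fall (6.25%, against 16.4%) in GFP mice, and a median log2 fold change of 0.15 in P16 mice and 0.16 in GFP mice. Atp6ap2, an accessory subunit, rose by 0.59 in P16 mice, and Atp6v0a1 had log2 fold changes of −0.73 in P16 mice and −0.84 in GFP mice. Of 30 genes for sorting to lysosomes, 3 rose (10%, against 19.6% of all genes) and 3 fell (10%, against 19%) in P16 mice. In GFP mice 5 rose (16.7%, against 17.2%) and 6 fell (20%, against 16.4%). Gnptg, a subunit of the enzyme that tags hydrolases with mannose 6-phosphate, fell in GFP mice (−0.71, adjusted p = 0.000452). By edgeR neither list had a call between the arms. At an unadjusted p under 0.05 each had 1 gene at 0 h (6.25% of the V-ATPase and 3.33% of the sorting genes, against 13.5% of all genes). At 48 h each had 4 (25% of the V-ATPase and 13.3% of the sorting genes, against 17.5%). At 48 h DESeq2 called 2 V-ATPase genes and 1 sorting gene higher in P16 mice, and limma-voom called none.

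Among 25 regulators of mTORC1 and of the TFEB family, 1 gene (4%) passed in each comparison of the arms. Over all genes 0.22% were called at 0 h and 2.28% at 48 h. Zkscan3, a zinc-finger repressor of autophagy and lysosomal genes, had 60.6, 50.96 and 54.02 CPM in P16 mice at 0 h, against 32.98, 32.3 and 36.8 CPM in GFP mice at 0 h (log2 fold change 0.70, adjusted p = 0.0273). Lamtor2, of the complex that anchors mTORC1 on lysosomes, had 79.5, 104 and 88.01 CPM in P16 mice at 48 h, against 60.9, 56.2 and 55.7 CPM in GFP mice at 48 h (log2 fold change 0.65, adjusted p = 0.0373). In both cases all 3 P16 mice were above all 3 GFP mice. Zkscan3 was lost without P16 mouse 1 or 3 at 0 h and in a fit of the 2 groups alone (adjusted p up to 0.159). Lamtor2 was lost without P16 mouse 2 or 3 or any GFP mouse at 48 h, or mouse 3 of either arm at 0 h. It was also lost with the replicate number as a block (adjusted p up to 0.219 over these fits). After hepatectomy 2 of the regulator genes rose (8%) and 6 fell (24%) in P16 mice, against 19.6% and 19% of all genes. In GFP mice 2 rose (8%) and 4 fell (16%), against 17.2% and 16.4%. Fnip2, a partner of folliculin, fell in both arms, by 1.36 on the log2 scale in P16 mice and by 0.61 in GFP mice. Mitf, a relative of Tfeb, fell in GFP mice (−1.19, adjusted p = 0.0246), a call lost without GFP mouse 2 or 3 at 0 h or 1 or 2 at 48 h. The fall of Fnip2 in GFP mice was lost without any GFP mouse at 0 h or without 1 or 2 at 48 h (adjusted p up to 0.166).

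Autophagy genes, whose products form the vesicles that deliver cargo to lysosomes, fell more often than they rose after hepatectomy. Of 36 tested, 17 fell (47.2%, against 19% of all genes) and none rose in P16 mice, and 16 fell (44.4%, against 16.4% of all genes) and 1 rose (2.78%, against 17.2%) in GFP mice, with a median log2 fold change of −0.35 in both P16 and GFP mice. Map1lc3a, an LC3 gene, had 25.2, 29.5 and 22.9 CPM at 48 h, against 59.9, 63.8 and 57.7 CPM at 0 h, in P16 mice. In the GFP arm it had 25.6, 25.8 and 24.6 CPM at 48 h, against 66.9, 74.5 and 61.4 CPM at 0 h. The log2 fold changes were −1.23 in P16 mice and −1.42 in GFP mice, and those of Gabarapl1, of the related GABARAP branch, were −1.66 in P16 mice and −1.07 in GFP mice. No autophagy gene passed by edgeR between the arms. At an unadjusted p under 0.05 there were 5 at 0 h (13.9%, against 13.5% of all genes) and 5 at 48 h (13.9%, against 17.5%). DESeq2 called 1, higher in P16 mice at 48 h, and limma-voom none.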

How the data were processed

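Per the labels' protocols, poly(A) RNA of freshly isolated hepatocytes was sequenced. The authors deposited whole-number counts of reads per gene, not normalized. The submitters' processing notes name STAR 2.5.0c, HTSeq, Trim Galore, Picard and SAMtools and the build mm10, while annotation and strandedness are not stated in the sources used here. Reads outside genes (3.62 to 9.8% of a library) and ambiguous reads (4.87 to 8.80%) stayed out of library sizes and tests. Of 31053 identifiers, 31011 were in GENCODE vM21, which gave positions, and 200 damaged or missing symbols were restored from identifiers. A second copy of the table was not used.

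In R 4.3.3, edgeR 4.0.16 fitted 4 group means to the 12 libraries (filterByExpr, TMM factors 0.825 to 1.23, robust quasi-likelihood F test), after a test on simulated data. Benjamini-Hochberg adjustment ran over 12257 genes, with a threshold of 0.05. The SE is the absolute log2 fold change over the root of F. Levels are TMM-scaled CPM. Replicates correlated at 0.950 to 0.981 in log CPM, and no pair was as close as counting noise. DESeq2 1.42.0, limma-voom (limma 3.58.1), other scalings, no filter, the compared groups alone, a replicate block and leaving out libraries were the alternatives.

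The members and lists were chosen with earlier results of these data known. Members past the test, Glb1, Grn and Tfeb are given in full, with the 4 lowest p where none passed. Of each other list, up to 4 genes with the largest changes past the test could be named, and not all are printed.

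Exons of some genes overlap those of neighbours, on the same strand for Gm49369, Gm49230 (Ctsl) and Tmppe (Glb1) and otherwise on the opposite one, so counts are uncertain to that extent, on the same strand whatever the strand setting: Ctsd (Gm49369, 34.4% of exon bases), Arsb (Gm26527, 32.3%), Ctsl (Gm47123, 26.8%), Sgsh (Card14, 21.6%), and Ctsb, Hexa, Ctsa, Lamp1, Cln3, Glb1, Ppt1, Grn, Atp6v1h and Ctsz with at most 12.8% per neighbour.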

Additional observations from a re-analysis of the deposited data

Results flagged for a closer look

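Grn was singled out because its responses to hepatectomy differed between the arms by a test of the difference itself. The log2 response in P16 mice exceeded that in GFP mice by 1.24 (SE 0.214, adjusted p = 0.0351 by the edgeR quasi-likelihood test). Levels were 186, 212 and 159 CPM in P16 mice at 48 h and 135, 154 and 133 CPM in GFP mice at 48 h. At 0 h they were 89.6, 89.8 and 92.7 CPM in P16 mice and 136, 207 and 146 CPM in GFP mice. Grn was thus higher at 48 h in 3 of 3 P16 mice than in any P16 mouse at 0 h. Of 19 alternative fits 14 kept the call, with adjusted p from 1.79e-05 to 0.113. The summed macrophage markers were 125 to 152 CPM in P16 mice at 48 h, 112 to 182 CPM in GFP mice at 48 h, 50.1 to 86.4 CPM in P16 mice at 0 h and 87.0 to 267 CPM in GFP mice at 0 h. Their part in the result was not tested.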

How the results depend on the processing

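Between the arms at 0 h, 1 member passed in the main test, DESeq2 called 2 and the fit of the compared groups alone called 0, and leaving out 1 library gave 0 to 2. At 48 h, with 0 in the main test, there were 2 by DESeq2, 1 by limma-voom, 2 without the low-count filter, 2 with the compared groups alone, 1 without both GFP mouse 2 at 0 h and P16 mouse 2 at 48 h, and 0 to 3 without single libraries. In the test of the difference of responses, with 1 in the main test, DESeq2 called 3, the unfiltered fit 2, and fits without single libraries 0 to 3. The response counts were 10 to 16 in P16 mice (14 in the main test) and 10 to 16 in GFP mice (16 in the main test) without single libraries. Tests of single members were compared with alternatives 677 times over 34 results, of which 627 had the same direction and side of the threshold, 19 lost the call, 23 gained it and 8 changed sign. The sign changed when single libraries were left out for values near 0: Tfeb at 0 h (−0.015 without GFP mouse 1 at 0 h, up to 0.57), Glb1 at 48 h (−0.19 without P16 mouse 1 and −0.096 without GFP mouse 3 at 48 h, up to 0.12) and Tfeb at 48 h (−0.13 without P16 mouse 2 and −0.091 without GFP mouse 2 at 48 h, up to 0.21). It also did for Grn in the GFP response (−0.32 up to 0.00060, which was without GFP mouse 2 at 0 h) and for the difference of responses of Tfeb (0.069 without GFP mouse 1 at 0 h, down to −0.69 without both GFP mouse 2 at 0 h and P16 mouse 2 at 48 h). Without that pair of libraries, Tfeb at 48 h was at −0.13. The cause was not tested. The 6-base motif was in 13 promoters and the 8-base motif in 6.

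With the replicate number as a block, 12 members passed in the GFP response, 14 in the P16 response, 1 at 0 h, 0 at 48 h and 1 in the difference of responses. Cln3, Mcoln1, Ctsl and Naglu lost the call in GFP mice. Same-numbered mice did not deviate together (correlations −0.048 to 0.057), so the numbers give no pairing.

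With 3 mice a group, the median SE over the members was 0.136 to 0.139 on the log2 scale within a comparison and 0.194 for the difference of responses. Genes with few reads, such as Ctss (19 to 215 reads per library) and Sgsh (27 to 151), had less precision.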
